A study of Mus musculus with 6 samples.

Results

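The 76 genes described here carry the names of mitochondrial ribosomal proteins, and 75 of them code for subunits of that ribosome. They are all the rows of the count table, out of 23412, whose symbol starts with Mrpl or Mrps followed by a digit. Each had at least 10 reads over the 6 libraries, and all 76 were among the 12626 genes abundant enough to be tested. RNA was sequenced from whole livers of C57BL/6J mice, an inbred strain, labelled as 8 weeks old. Both groups ate a high-fat diet for 4 weeks. The HFD_Lira3d group (3 libraries) then received liraglutide at 300 µg/kg under the skin for 3 days, and the HFD_PBS3d group (3 libraries) is labelled with phosphate-buffered saline (PBS) instead. Liraglutide activates the receptor for glucagon-like peptide 1 and is used against diabetes and obesity. A group matched for food intake was not analysed here. The labels do not give the sex, nor whether each library came from 1 animal. The p-values thus set the difference between groups against the scatter of these libraries, and that scatter may be technical. Libraries are named by group and by the number of their column in the table (Lira161, PBS155 and so on).

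The mitochondrial ribosome translates the few proteins encoded by mitochondrial DNA, all of them core parts of the oxidative phosphorylation machinery. Its proteins are encoded in the nucleus, made in the cytosol and imported. The large subunit joins amino acids and the small subunit reads the messenger RNA. Many subunits have counterparts in bacterial ribosomes, and others were added during the evolution of mitochondria. Liver cells are rich in mitochondria and depend on this machinery for fatty acid oxidation and ATP. Of the 76 genes, 49 code for large subunit proteins (31 of families shared with bacteria, 18 specific to mitochondria) and 26 for small subunit proteins (17 and 9). These counts place Mrps30 and Mrps18a in the large subunit, where their proteins sit. Mrps36 keeps its ribosomal name, but its product is a part of the 2-oxoglutarate dehydrogenase complex.

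Library totals lay between 20888991 and 27007182 reads, and mitoribosomal genes took between 2.04 and 2.27 reads per 1000. No pair of libraries within a group was alike within sampling noise (chi-square per degree of freedom from 31.0 to 61.3). The 6 hepatocyte markers (Alb, Ttr, Apoa1, Cps1, Tat, Hnf4a) were detected and summed to between 65901 and 96042 CPM (counts per 1000000 reads), as the liver label says. Of these, 4 had estimates above 0 and 2 below. Hnf4a was higher under liraglutide (log2 fold change 0.53 ± 0.13, edgeR adjusted p = 0.0338), and Alb had -0.42 ± 0.19 (adjusted p = 0.199). Markers of other cells differed between libraries. The summed level of 6 Kupffer cell markers ranged from 66.7 to 296 CPM in PBS libraries and from 165 to 266 in liraglutide libraries, and that of 6 endothelial markers from 96.8 to 193 and from 167 to 273. The sums of 5 other lists did not overlap between the groups, while those of B cell, neutrophil, dividing cell and adipocyte markers did. Stellate cell markers (302 to 357 CPM under liraglutide, 169 to 288 under PBS) and T and natural killer cell markers (1.72 to 2.04 and 0.776 to 0.971) were higher under liraglutide. Bile duct cell markers (5.98 to 7.71 and 8.27 to 9.997), erythroid markers (18.03 to 39.4 and 76.1 to 91.9) and exocrine pancreas markers (7.09 to 9.58 and 9.92 to 21.1) were lower. Of the 6 stellate and 4 bile duct markers and the 2 of 4 T and natural killer cell markers that were tested, none had an edgeR adjusted p below 0.05. Groups did not overlap for 1 gene in each of these lists, and for 31.3% of all tested genes. The part of cell type markers in the mitoribosomal results was not tested. Of 3 erythroid markers in the table, 2 (Hba-a1 and Hbb-b1) were at 0, and the third, Alas2, was lower under liraglutide. Of 3 exocrine pancreas markers Pnlip was at 0, while Cela1 was at 8.49 ± 1.33 against 16.4 ± 6.10 CPM (log2 fold change -0.95 ± 0.28, edgeR adjusted p = 0.0811). Adipocyte markers summed to at most 0.144 CPM.

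The mitochondrial ribosome genes were nearly level between the groups. Only Mrpl54, a large subunit gene, passed the test, and it was higher under liraglutide (1 of 76, or 1.32%, against 8.77% of all tested genes: 4.08% were higher and 4.69% lower). None was lower past the threshold, an adjusted p of 0.05 in the quasi-likelihood test of edgeR, with p-values adjusted over all genes by Benjamini and Hochberg's method. At an unadjusted p below 0.05 there were 2 higher and 7 lower members, against 25.6% of all tested genes in either direction. The median log2 fold change was -0.03 for the members and 0.01 for all tested genes, with 30 members above 0 and 46 below. This sign depends on the scaling: the median was 0.02 when libraries were scaled by their totals instead of TMM factors, with 42 members above 0. It was also 0.00 without library PBS158, and -0.11 without library PBS155, with 39 and 19 members above 0.

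The intervals of most members lay near 0. For 68 of 76 genes the estimated log2 fold change lay within 0.25 of 0, and the median standard error was 0.11. The 95% interval of 69 members (90.8%) lay wholly within a 1.5-fold change in either direction, and that of 75 within a 2-fold change. Among all tested genes with a mean of at least 5 CPM, 67.0% had an interval within a 1.5-fold change, and the median standard error was 0.12. For nuclear subunits of oxidative phosphorylation this share was 88.3%, and for cytosolic ribosomal proteins 76.9%. The share depends on how near 0 the estimates lie as well as on the width of the intervals. These intervals are per gene and not adjusted for the number of genes. Mrpl23, the least abundant member, had the widest (from -1.11 to 0.08).

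**Figure D1:**
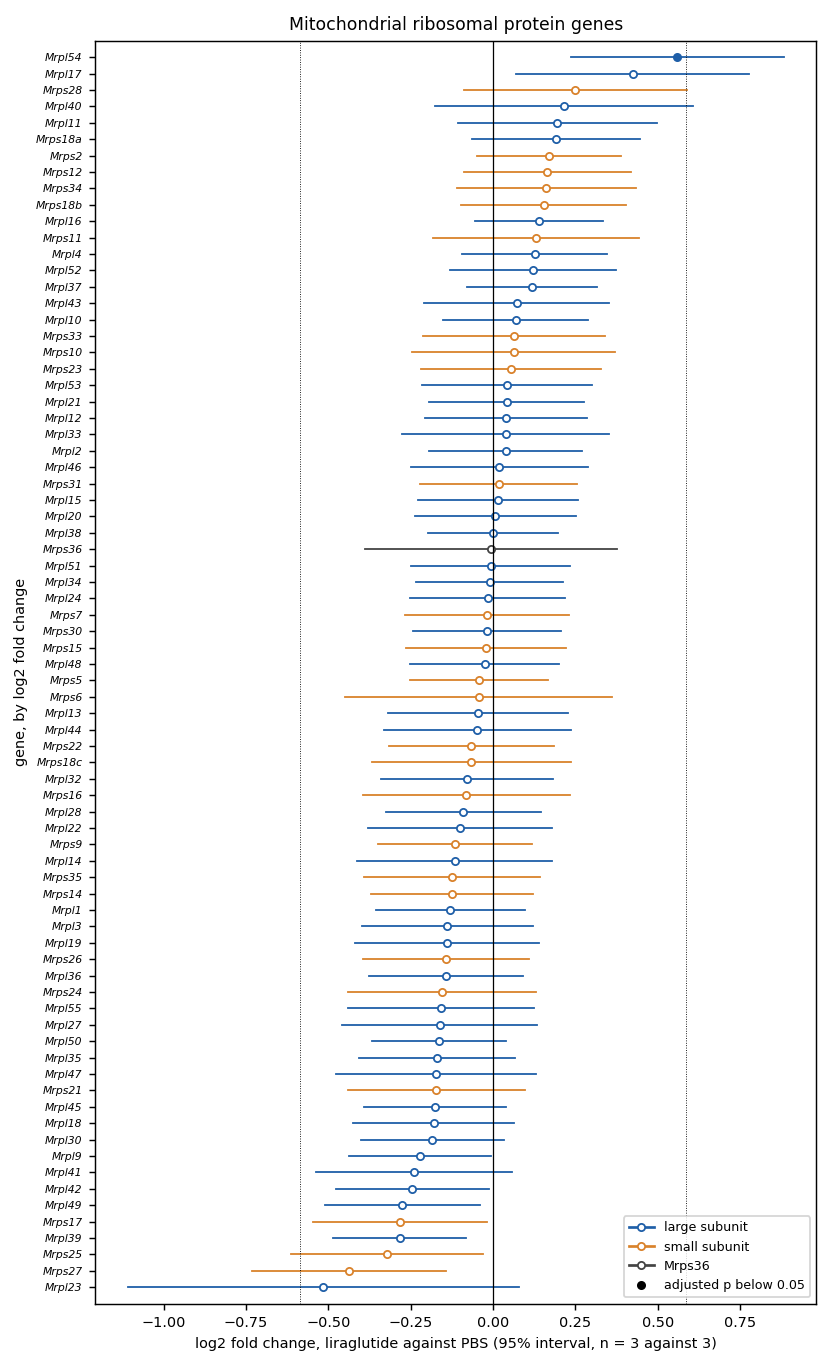
Log2 fold change (points) with its 95% interval (bars) for each of the 76 genes, liraglutide against PBS, n = 3 libraries per group; dotted lines mark a 1.5-fold change. Most intervals cross 0 and only Mrpl54, the filled point at the top, passed the test.

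The groups did not overlap for 13 of the 76 members (17.1%, against 31.3% of all tested genes). In 5 of these the liraglutide libraries were the higher ones (Mrpl54, Mrps28, Mrps18a, Mrpl16, Mrpl37) and in 8 the lower ones (Mrps27, Mrpl39, Mrpl49, Mrps25, Mrpl42, Mrpl9, Mrpl45, Mrpl35).

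Mrpl54, whose product is a large subunit protein without a bacterial counterpart, lies on chromosome 10 (81264713 to 81266934, GRCm38). It was at 24.9, 23.0 and 17.5 CPM in libraries Lira161, Lira162 and Lira164, and at 13.9, 15.9 and 14.5 CPM in PBS155, PBS157 and PBS158. Every liraglutide library was above every PBS library, and Lira164 stood closest to them. The means were 21.8 ± 3.87 against 14.8 ± 1.03 CPM (SD, n = 3 each), a log2 fold change of 0.56 ± 0.14 (SE, edgeR adjusted p = 0.0429). The call rested on the full set of libraries: it held without Lira164 (log2 fold change 0.69, adjusted p = 0.00679), and with 1 of the other libraries left out the adjusted p lay between 0.0750 and 0.152. With limma-voom the adjusted p was 0.0571.

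Mrpl54 shares its upstream region with Apba3, a gene of an adaptor protein of the X11 family that runs the opposite way and starts 26 bases from it. Apba3 (chromosome 10, 81266960 to 81273246) was at 43.2, 45.1 and 38.6 CPM in Lira161, Lira162 and Lira164 and at 27.0, 33.8 and 32.4 CPM in PBS155, PBS157 and PBS158. Both genes of the pair were thus higher in every liraglutide library, with Lira164 the lowest of that group in each. Apba3 rose by 0.44 ± 0.11 on the log2 scale (edgeR adjusted p = 0.0420). It kept its call without Lira164, and with any other library left out the adjusted p reached up to 0.168. The annotated exons of Mrpl54 overlap those of no other gene.

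**Figure D2:**
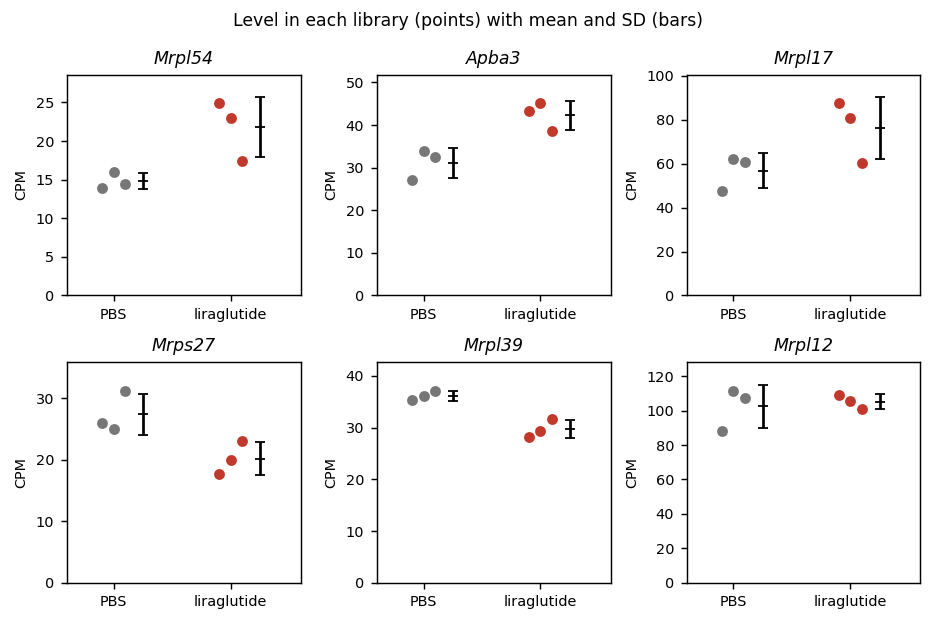
TMM-scaled CPM in each library (points) with mean and SD (bars, n = 3) for Mrpl54, its neighbour Apba3 and 4 other mitoribosomal genes; axes start at 0. Mrpl54 and Apba3 are higher and Mrps27 and Mrpl39 lower in every liraglutide library, while Mrpl17 and Mrpl12 overlap between the groups.

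Among the other large subunit genes, those with the highest estimates were Mrpl17, Mrpl40 and Mrpl11. Mrpl17, a counterpart of bacterial L17, was at 87.4, 80.7 and 60.5 CPM in Lira161, Lira162 and Lira164 against 47.5, 62.1 and 60.9 CPM in PBS155, PBS157 and PBS158. Lira161 and Lira162 were above all PBS libraries and Lira164 was below 2 of them. Its log2 fold change was 0.42 ± 0.16 (edgeR adjusted p = 0.129). Without Lira164 it was 0.56 (adjusted p = 0.0268), the only fit in which Mrpl17 passed. Mrpl40, a mitochondria-specific subunit, had 0.22 ± 0.17 and Mrpl11, the counterpart of bacterial L11 at the factor-binding site, 0.20 ± 0.13, with overlapping groups in both.

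The lowest large subunit estimates were those of Mrpl23 and Mrpl39. Mrpl39, a mitochondria-specific subunit, was at 28.2, 29.3 and 31.7 CPM under liraglutide (Lira161, Lira162, Lira164) and at 35.3, 36.1 and 37.2 CPM under PBS (PBS155, PBS157, PBS158). The groups were apart and both were tight, but the difference of -0.28 ± 0.09 did not pass (edgeR adjusted p = 0.0830). Mrpl23, a counterpart of bacterial L23 at the mouth of the exit tunnel, was at 2.46, 2.93 and 2.67 CPM against 3.96, 2.57 and 5.04 CPM in the same order of libraries. Its groups overlapped through PBS157, and the log2 fold change was -0.52 ± 0.26 (adjusted p = 0.259). Mrpl12, which forms the flexible stalk that recruits translation factors, was the most abundant member per length and had overlapping groups: 105 ± 4.18 against 102 ± 12.6 CPM (0.04 ± 0.11, interval -0.21 to 0.29).

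No small subunit gene passed the test in edgeR, DESeq2 or limma-voom, and at an unadjusted p below 0.05 edgeR gave 0 higher and 3 lower. Mrps27, a pentatricopeptide repeat protein specific to mitochondria, was at 17.6, 19.9 and 23.0 CPM in Lira161, Lira162 and Lira164 and at 25.9, 25 and 31.2 CPM in PBS155, PBS157 and PBS158. Every liraglutide library was below every PBS library, with a log2 fold change of -0.44 ± 0.13 (edgeR adjusted p = 0.0704). Without Lira164 it passed (-0.55, adjusted p = 0.0323). A stretch of 506 bases, 24.2% of its exons, overlaps the noncoding gene 6430562O15Rik on the other strand, and whether reads were counted by strand is not stated here. Mrps25, also mitochondria-specific, was at 8.98 ± 0.20 against 11.2 ± 1.29 CPM (-0.32 ± 0.13, adjusted p = 0.155), and 69.8% of its exon bases overlap Nr2c2 on the other strand, so its reads are uncertain. Mrps28, a counterpart of bacterial S1, had the highest small subunit estimate (0.25 ± 0.15, adjusted p = 0.334). Its liraglutide libraries (14.2, 14.5 and 13.5 CPM for Lira161, Lira162 and Lira164) were just above PBS157 and PBS158 (13.3 and 13 CPM), while PBS155 was at 9.27 CPM.

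The balance of the subunits was the same within the spread of the libraries. Summed reads of large over small subunit genes gave a ratio of 2.31 ± 0.06 under liraglutide and 2.29 ± 0.05 under PBS (SD, n = 3 each). The median log2 fold change was -0.03 for the 49 large subunit genes, with a range from -0.52 to 0.56, and -0.04 for the 26 small subunit genes, from -0.44 to 0.25. By origin it was -0.08 and -0.01 for large subunit genes shared with bacteria and specific to mitochondria, and -0.04 and -0.07 for small subunit genes. Mrps36, the row that is no ribosomal subunit, was at -0.01 ± 0.17.

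The libraries of each group differed more among themselves than the groups did. The mean log2 CPM over the 76 members, relative to the PBS mean, was 0.02, -0.02 and -0.11 in Lira161, Lira162 and Lira164 and -0.13, 0.04 and 0.09 in PBS155, PBS157 and PBS158. PBS155 was the lowest library and PBS158 the highest, both from the same group, and the mean difference between groups was -0.04. In the same libraries the Kupffer cell list stood at 1.38 in PBS155 and -1.05 in PBS158 on that scale, and the endothelial list at 0.58 and -0.39. Their part in the mitoribosomal levels was not tested. In whole liver, fewer cells of a type and less RNA per cell cannot be told apart.

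**Figure D3:**
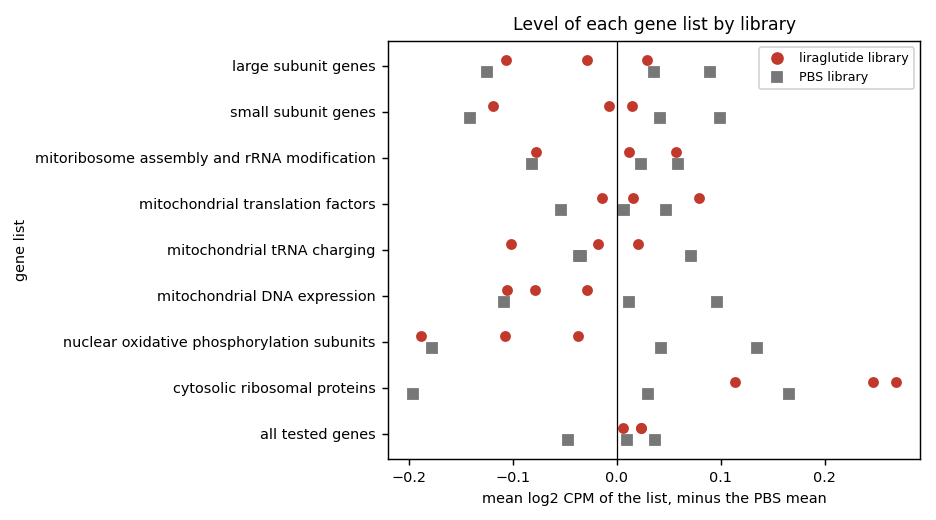
Mean log2 CPM of each gene list in each library, minus the mean of the PBS libraries, with circles for liraglutide and squares for PBS. Large and small subunit genes move together from library to library, from about -0.14 to 0.10, and the groups overlap.

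Levels of different genes were compared per length, as CPM per kilobase of merged exons (GENCODE M21), averaged over the 6 libraries. Mrpl12 was highest (67.8), followed by Mrpl34 (39.4) and Mrpl14 (38.6), counterparts of bacterial L34 and L14. Mrpl34 and Mrpl14 do not differ beyond their spread (39.6 ± 1.24 and 40.1 ± 5.94 in PBS libraries). The median member was at 11.2, against 3.47 over all tested genes. The lowest were Mrpl33 (2.42), Mrps25 (1.54) and Mrpl23 (0.67). This order depends on the gene model for several members, since merged exons include long alternative ends. With the length of the principal transcript, a choice made after seeing the data, Mrpl12 remained highest (78.9), followed by Mrpl52 (65.7, against 24.8 with merged exons) and Mrpl14 (56.7). Mrpl34 stayed at 39.4 but with 12 members above it. Mrps25 was at 1.67, while Mrpl33 came to 37.0 and Mrpl23 to 4.73.

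**Figure D4:**
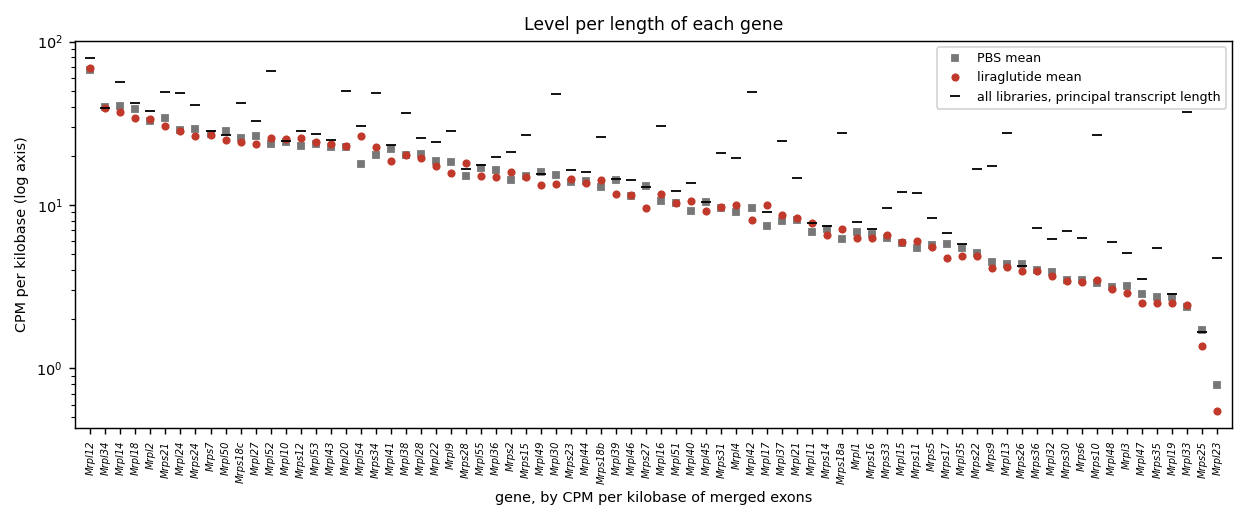
CPM per kilobase of merged exons (log axis) for each gene, as the mean of the PBS (squares) and liraglutide (circles) libraries, with dashes for the length of the principal transcript. The levels span from 67.8 for Mrpl12 to 0.67 for Mrpl23, and the 2 groups lie close together in nearly every gene.

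The 76 genes are spread over 17 chromosomes, with 10 on chromosome 11. Of these genes, 32 have a protein-coding neighbour on the other strand whose annotated start lies within 1000 bases of their own. Among the 27 tested neighbours that are not themselves members, 4 passed the test (14.8%, beside 8.77% of all tested genes), and they were named after their values were seen. Besides Apba3, Pnpla7, a lysophospholipase gene that starts 935 bases from Mrpl41, was at 199 ± 17.7 against 144 ± 6.95 CPM (0.47 ± 0.10, edgeR adjusted p = 0.0244), whereas Mrpl41 had -0.24 ± 0.13 (adjusted p = 0.289). Ppp1r10, a nuclear subunit of protein phosphatase 1 that starts 45 bases from Mrps18b, was at 26.5 ± 6.07 against 56.8 ± 14.3 CPM (-1.10 ± 0.22, adjusted p = 0.0239), while Mrps18b had 0.15 ± 0.11 (adjusted p = 0.426). Mitd1 starts 66 bases from Mrpl30 and fell by 0.67 ± 0.18 (adjusted p = 0.0491), and Mrpl30 had -0.18 ± 0.10 (adjusted p = 0.270). In these 3 pairs the neighbour passed and the mitoribosomal gene did not; the differences within pairs were not tested. With 1 library left out, Ppp1r10 was called in 4 of 6 fits and Pnpla7 and Mitd1 in 1 each (adjusted p up to 0.101 and 0.172). Mitd1 also lost its call with library totals (adjusted p = 0.0667), a mean of at least 5 CPM (0.0516) and limma-voom (0.0583). The paired genes Mrpl46 and Mrps11, both members, start within 412 bases of each other and share 173 exon bases. They had log2 fold changes of 0.02 ± 0.12 and 0.13 ± 0.14.

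Many of these promoters carry motifs of factors known to drive nuclear genes of mitochondria. RefSeq promoter windows (GRCm38.p6, 250 bases before to 50 after the start) were available for 67 members in 73 windows. Each motif was searched on both strands. The ETS motif CCGGAAG, bound by GABP (also called NRF-2), was in 32.9% of member windows, against 16.5% of windows of tested genes and 8.9% of all windows. For the palindromic NRF1 motif these shares were 16.4%, 9.5% and 4.6%, and for the YY1 motif AAGATGGCG 11.0%, 2.9% and 1.4%. At least 1 of these 3 motifs was in 53.4% of member windows and in 26.0% of windows of tested genes. The GC box GGGCGG was in 52.1% of member windows and 60.7% of those of tested genes, CCAAT in 41.1% and 37.4%, the E-box CACGTG in 9.6% and 9.9%, and TATAAA in 6.8% and 7.7%. GC box hits may overlap other motifs. A match is a description of the letters and no evidence of binding.

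The stretches from 130 bases before to 30 after the start are given for the 4 members with the smallest p that have a window. They lie at chr13:99344656-99344815 (plus strand), chr16:84735215-84735374 (minus), chr7:105811058-105811217 (minus) and chr19:6057726-6057885 (minus), GRCm38. Capitals mark any of the 7 motifs searched.
Mrps27: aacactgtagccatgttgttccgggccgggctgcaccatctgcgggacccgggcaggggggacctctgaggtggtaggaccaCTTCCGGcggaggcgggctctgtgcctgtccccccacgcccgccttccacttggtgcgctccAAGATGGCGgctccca
Mrpl39: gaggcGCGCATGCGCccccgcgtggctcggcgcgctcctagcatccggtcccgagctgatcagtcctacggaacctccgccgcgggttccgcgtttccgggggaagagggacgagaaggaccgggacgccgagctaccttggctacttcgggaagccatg
Mrpl17: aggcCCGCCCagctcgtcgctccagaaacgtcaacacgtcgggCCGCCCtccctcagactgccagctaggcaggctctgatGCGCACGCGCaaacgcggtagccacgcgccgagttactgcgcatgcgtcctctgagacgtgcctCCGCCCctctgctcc
Mrpl49: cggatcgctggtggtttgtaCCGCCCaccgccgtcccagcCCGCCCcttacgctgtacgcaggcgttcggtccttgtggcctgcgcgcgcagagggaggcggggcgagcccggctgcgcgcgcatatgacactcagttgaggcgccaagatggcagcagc
The Mrps27 stretch holds the ETS and YY1 motifs, that of Mrpl39 the NRF1 motif, that of Mrpl17 NRF1 and GC box motifs and that of Mrpl49 only GC boxes. The Mrpl39 stretch, placed by a RefSeq start, lies wholly inside the gene as GENCODE M21 has it (84717576 to 84735742). The place of its motif relative to the start thus depends on the annotation. Outside the printed stretch, the Mrpl17 window also holds an ETS motif and a further GC box, and that of Mrpl39 a CCAAT motif. None of these 4 genes passed the test, and whether motifs go with the direction of the estimates was not tested. The factors' own genes were on the list of 10 nuclear regulators of mitochondrial gene expression, of which none passed in edgeR or DESeq2 and 0 had an unadjusted p below 0.05. Over these 10 genes, 6 estimates were above 0 and 4 below, with a median log2 fold change of 0.09. The highest estimates were those of Ppargc1a (0.60 ± 0.31, edgeR adjusted p = 0.287) and Myc (0.51 ± 0.50, adjusted p = 0.566), with overlapping groups in both. Ppargc1a was at 22.3, 30.2 and 11.8 CPM in Lira161, Lira162 and Lira164 and at 14.1 ± 0.51 CPM under PBS. The smallest p were those of Gabpa and Gabpb2. Gabpa, the DNA-binding subunit of GABP, was at 58.4 ± 3.78 against 66.2 ± 3.58 CPM (-0.18 ± 0.09, edgeR adjusted p = 0.256). Gabpb2, a partner subunit gene, was at 38.3 ± 4.08 against 44.4 ± 4.20 CPM (-0.21 ± 0.11, adjusted p = 0.276). Of the other genes of these factors, Gabpb1 had 0.12 ± 0.12, Nrf1 0.07 ± 0.11 and Yy1 -0.02 ± 0.09.

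In other parts of the mitochondrial translation system few genes passed the test. The medians of these lists lay between -0.06 (mitochondrial DNA expression) and 0.05 (translation factors). Of 7 mitoribosomal genes under other names, none passed. Dap3, a GTP-binding small subunit protein, was at 31.3, 31.2 and 29.7 CPM in Lira161, Lira162 and Lira164 against 34.2, 40.0 and 43.0 CPM in PBS155, PBS157 and PBS158 (-0.35 ± 0.11, edgeR adjusted p = 0.0748). Its groups were apart, and it passed without PBS155 (adjusted p = 0.0330). Ptcd3, another pentatricopeptide repeat protein of the small subunit, had -0.24 ± 0.11 (adjusted p = 0.220). At an unadjusted p below 0.05, 1 of the 7 was lower and 0 higher.

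Of 28 tested genes for assembly of the mitoribosome and modification of its RNA, 1 rose and none fell (3.57% called, against 8.77% of all tested genes), with a median of -0.01. The riser was Ddx28, a helicase that acts in large subunit assembly, at 23.5, 23.7 and 21.3 CPM in Lira161, Lira162 and Lira164 against 14.6, 16.5 and 18.1 CPM in PBS155, PBS157 and PBS158. The groups did not overlap, and the log2 fold change was 0.48 ± 0.11 (edgeR adjusted p = 0.0325). Ddx28 kept the call without Lira164 and lost it with any other library left out (adjusted p up to 0.136). At an unadjusted p below 0.05, 3 of the 28 were higher and 0 lower, beside 25.6% of all tested genes in either direction. Among them was Trub2, whose groups did not overlap (0.47 ± 0.14, edgeR adjusted p = 0.0707).

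Of 15 translation factors none passed, with 1 higher and 1 lower at an unadjusted p below 0.05. Those were the genes of both initiation factors: Mtif2 at 36.1 ± 0.98 against 44.5 ± 3.87 CPM (-0.30 ± 0.10, edgeR adjusted p = 0.0829) and Mtif3 at 40.8 ± 1.67 against 35.1 ± 1.81 CPM (0.22 ± 0.09, adjusted p = 0.163). The groups did not overlap for either gene. Their contrast was not tested. Of 21 tested genes for charging mitochondrial transfer RNAs, 1 fell and none rose (4.76% called, against 8.77% of all tested genes). At an unadjusted p below 0.05, 0 of these were higher and 2 lower. Nars2, which attaches asparagine, was at 14.7, 16.8 and 17.6 CPM in Lira161, Lira162 and Lira164 and at 20.9, 22.3 and 23.1 CPM in PBS155, PBS157 and PBS158, and the groups were apart (-0.43 ± 0.11, adjusted p = 0.0417). It was called in 2 of 6 fits with a library left out, without Lira164 or PBS155, and not with library totals (adjusted p = 0.0722). Of 18 genes of mitochondrial DNA expression and upkeep none passed, with 2 lower at an unadjusted p below 0.05. Polg2, the accessory subunit of the mitochondrial DNA polymerase, was at 6.51 ± 0.12 against 9.40 ± 1.51 CPM (-0.53 ± 0.15, adjusted p = 0.0674) and passed without PBS155 (0.0291). Ssbp1, the single-stranded DNA binding protein, had -0.28 ± 0.13 (adjusted p = 0.194).

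The mitoribosomal genes lay between the cytosolic ribosomal genes and the nuclear genes of oxidative phosphorylation. Of 78 tested genes of the cytosolic ribosome, which makes all other cellular proteins, 94.9% had an estimate above 0 (51.6% of all tested genes), with a median log2 fold change of 0.19, and none passed the test. At an unadjusted p below 0.05, 23 of these were higher and 0 lower, against 1582 higher and 1648 lower of all 12626 tested genes. Of 77 tested nuclear subunits of oxidative phosphorylation, 15.6% were above 0, with a median of -0.12, and none passed. There, 0 were higher and 14 lower at an unadjusted p below 0.05, or 14 of 77 in either direction beside 25.6% of all tested genes. Among mitoribosomal genes 39.5% were above 0. DESeq2 called 1 higher gene of the cytosolic ribosome and 1 lower gene of oxidative phosphorylation. The medians of these 2 lists kept their signs under every scaling and with any library left out, between 0.09 (without PBS155) and 0.28 for the cytosolic ribosome and between -0.23 (without PBS155) and -0.05 (without PBS158) for oxidative phosphorylation. The list levels relative to the PBS mean were 0.21 ± 0.08 (SD, n = 3 liraglutide libraries) for cytosolic ribosomal, -0.11 ± 0.08 for oxidative phosphorylation and -0.04 ± 0.07 for mitoribosomal genes. The PBS libraries alone spread by 0.18, 0.16 and 0.11 (SD) on these lists. The differences between lists were not tested, and genes of a list are not independent. In the cytosolic list Rpl5 (0.42 ± 0.12, edgeR adjusted p = 0.0534) and Rplp2 (0.40 ± 0.12, adjusted p = 0.0734) had the smallest p. In oxidative phosphorylation these were Ndufb4 (-0.46 ± 0.14, adjusted p = 0.0713) and Ndufa4l2 (-1.09 ± 0.34, adjusted p = 0.0821). Ndufa4l2 is in that list by its symbol alone. The cytosolic list was also picked by symbol, which takes in Rpl7l1 and Rps27l, and 78 of its 84 rows were tested. Rpl26 had 0 reads in every library. Rpl34, with the highest estimate of that list, was at only 0.87 ± 0.42 against 0.64 ± 0.32 CPM (0.45 ± 0.48). Rpl5 passed under some alternatives, among them DESeq2 and library totals.

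**Figure D5:**
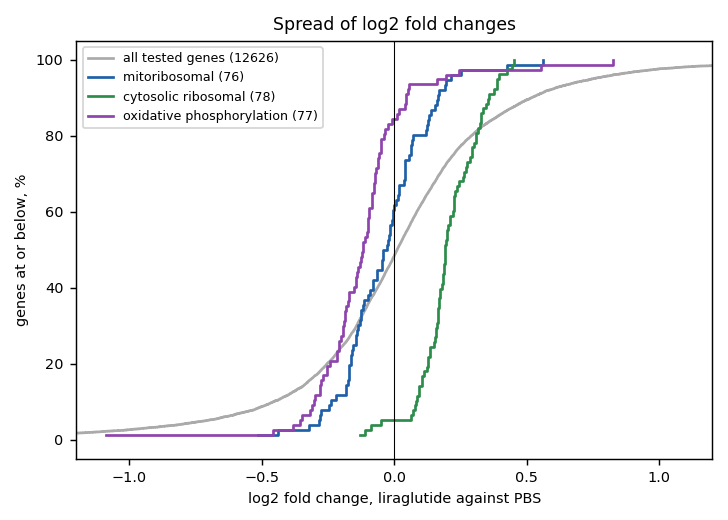
Cumulative share of genes (in percent) by log2 fold change, liraglutide against PBS, for all tested genes and 3 gene lists, shown from -1.2 to 1.2. The mitoribosomal curve is steep around 0, with the cytosolic ribosomal curve to its right and that of oxidative phosphorylation to its left.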

How the data were processed

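Raw read counts per gene symbol were deposited by the authors as 1 table of 6 libraries. Per the submitters' processing notes, STAR and the build mm10 were used; no counting tool, annotation or strand setting is named there. The numbers in the column names differ from the triplicate numbers in the labels, so each column has a group but no replicate number. Genes passing edgeR's filterByExpr (12626 of 16949 with a count) were analysed in R 4.3.3 with edgeR 4.0.16: TMM scaling, estimateDisp, robust glmQLFit and glmQLFTest, with group as the only term, and two-sided p-values were adjusted by the Benjamini-Hochberg method over all tested genes. The standard error is the log2 fold change divided by the square root of F, and intervals are at 95% from the t distribution. CPM are TMM-scaled, except summed marker levels, which use library totals, and the log2 CPM behind list levels have 2 counts added. The estimated biological coefficient of variation was 0.157 in common over genes. The procedure was tested on simulated counts, where it recovered 32.8% of 1.5-fold, 68.7% of 2-fold and 98.5% of 4-fold changes. Of its 138 calls there, 5 were false. Changes of 1.5-fold or less can thus be missed.

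The members, gene lists and tests were chosen with earlier results of these data known, so lists are described by counts and medians. The lists came from textbook roles, except that genes of the cytosolic ribosome and of oxidative phosphorylation were picked by symbol. Named genes were members past the threshold, the 4 highest and 4 lowest of the others, and the 3 highest and lowest per length. In each other list they were up to 4 called genes or the 2 with the smallest p. Outside this rule, neighbours, Mrpl49, Mrpl41, Mrpl30, Mrps18b, Mrpl46, Mrps11, Mrps36 and the non-overlapping members were named after their values were seen. So were Trub2, Gabpb1, Nrf1, Yy1, Ppargc1a, Myc, Rpl26, Rpl34, Rpl7l1 and Rps27l. Gene positions, exons and lengths are from GENCODE M21 (GRCm38, the assembly of mm10), which matched 23012 symbols and all 76 members. No promoter window was available for Mrpl13, Mrpl15, Mrpl19, Mrpl38, Mrpl4, Mrpl54, Mrps28, Mrps34 and Mrps35. Alternatives were DESeq2 1.42.0 (Wald test, or its size factors in edgeR), upper quartile factors, library totals, no filter beyond 1 count, a mean of at least 5 CPM, voom of limma 3.58.1, a fit after dropping the 10 genes with most reads, and fits omitting 1 library at a time. Figures used matplotlib 3.10.9.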

Additional observations from a re-analysis of the deposited data

How the results depend on the processing

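No paired analysis was possible because the columns carry none of the triplicate numbers of the labels. Among 13 named mitoribosomal genes, 167 of 181 alternative fits kept the direction and the side of the threshold. Mrpl54 lost its call in 6 fits, and Mrpl17 and Mrps27 gained one without Lira164. The sign turned in 6 fits, all of genes near 0: Mrpl12 turned without PBS155, Mrpl34 with library totals (0.040) and without Lira162 or PBS157, and Mrpl33 without Lira162 or PBS155. With each library left out, Mrpl12 ranged from -0.071 to 0.105, Mrpl34 from -0.065 to 0.045 and Mrpl33 from -0.083 to 0.158. The median of the members moved by less than the spread of the PBS libraries in every alternative (from -0.11 to 0.02).

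With limma-voom 0 mitoribosomal genes were higher, and so 0 of the large subunit. With library totals 0 genes of mitochondrial transfer RNA charging were lower and 2 of the cytosolic ribosome higher; the latter count was 1 with no filter, with a mean of at least 5 CPM and with DESeq2's Wald test, which also called 1 lower gene of oxidative phosphorylation. With each library left out in turn, higher calls ranged from 0 to 2 for all mitoribosomal, large subunit and assembly genes and from 0 to 1 for nuclear regulators and the cytosolic ribosome. Lower calls ranged from 0 to 1 for all mitoribosomal and small subunit genes, mitoribosomal genes under other names, transfer RNA charging and mitochondrial DNA expression, and from 0 to 4 for oxidative phosphorylation. Over all genes, calls in both directions together ranged from 393 to 1496, against 1107 with every library. Library totals gave 609 higher and 456 lower calls over all genes, against 515 and 592 with TMM factors. The cause of these changes was not tested; fits with a library left out have 1 library less. Mrpl23, the member with the fewest reads, had the widest interval, and whether depth sets it was not tested.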
